A study of Mus musculus with 16 samples.

Results

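The cytosolic ribosomal proteins are the structural proteins of the ribosome outside mitochondria. Their genes were taken by symbol from the deposited gene count table: every symbol that begins with Rpl or Rps and a digit, plus Rplp0, Rplp1 and Rplp2, without the S6 kinases and without symbols marked as pseudogenes. The rule found 84 of the 15119 genes in the table. Of these, 43 encode large subunit proteins, 3 encode the acidic stalk proteins and 30 encode small subunit proteins, which makes 76 core genes. Another 5 are paralogs of a core gene (Rpl22l1, Rps27l, Rps4l, Rpl36al and Rpl7l1). Rpl37rt and Rps23rg1 are retroposed copies. Rps19bp1, which encodes a protein that binds RPS19, matched the rule by its symbol and is not a ribosomal protein. All 84 genes passed the filter on low counts.

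The libraries were poly(A) RNA-seq of livers from female mice, with 4 libraries in each of 4 groups. Mice were wild type (WT) or carried a knockout of Arglu1 in hepatocytes (LKO). Until 9 months of age all mice ate chow; over the next 12 weeks they either kept to it or were switched to TD. 88137, a high-fat diet (HFD). The strain, the Cre driver and the alleles that the WT mice carry are not given in the sources used here, and no label ties a library to its own mouse. The p-values therefore measure the spread between libraries, which may be technical. Total counts ran from 19142612 to 25120565 per library. Arglu1, which encodes a coactivator of transcription and splicing, was at 41.2 ± 2.62 CPM (counts scaled to a library of 1e+06; SD, n = 4) in WT chow, 14.7 ± 1.56 in LKO chow, 42.2 ± 1.70 in WT HFD and 15.5 ± 1.53 in LKO HFD. It was lower in LKO on both diets, by a log2 fold change of -1.49 on chow and -1.44 on HFD, and no LKO library overlapped a WT library. Summed CPM of the 11 listed hepatocyte markers whose symbols were found was between 79027 and 137466 in all libraries. Listed markers with no matching symbol were left out.

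Each ribosome carries a large and a small subunit built on ribosomal RNA, and cells make the proteins in matched amounts. Most ribosomal protein mRNAs start with a run of pyrimidines at the 5′ end, the terminal oligopyrimidine (TOP) motif, through which the kinase complex mTORC1 controls their translation. A few proteins have paralogs that can replace them in the ribosome, such as RPL22L1 for RPL22 and RPS27L for RPS27. Liver, which secretes most plasma proteins, holds many ribosomes.

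The start sites of 7 of the 8 genes called between genotypes on chow, and of Rpl22 and Rps27, the parents of the paralogs called on both diets, are shown because the TOP motif lies there. RefSeq promoters (GRCm38.p6, 250 bases before to 50 after the annotated start) were found for 63 of the 84 genes. Each line gives 30 bases before and 20 bases from the start on, on the gene's strand, and capitals mark the longest uninterrupted run of C and T letters in the last 40 bases. The windows are chr3:28805478-28805527 on the plus strand for Rpl22l1, chr4:152325696-152325745 (plus) for Rpl22, chr9:66946056-66946105 (plus) for Rps27l and chr3:90213629-90213678 (minus) for Rps27. They are chr2:32961682-32961731 (plus) for Rpl12, chr17:28328441-28328490 (plus) for Rpl10a, chrX:74270786-74270835 (plus) for Rpl10, chr9:64173357-64173406 (plus) for Rpl4 and chr4:86857348-86857397 (minus) for Rps6.
Rpl22l1: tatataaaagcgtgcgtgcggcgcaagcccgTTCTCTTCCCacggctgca
Rpl22: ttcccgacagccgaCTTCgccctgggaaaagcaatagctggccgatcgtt
Rps27l: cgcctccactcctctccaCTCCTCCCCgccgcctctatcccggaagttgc
Rps27: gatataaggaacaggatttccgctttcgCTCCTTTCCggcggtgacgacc
Rpl12: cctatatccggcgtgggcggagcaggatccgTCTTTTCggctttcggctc
Rpl10a: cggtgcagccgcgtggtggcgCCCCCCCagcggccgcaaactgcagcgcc
Rpl10: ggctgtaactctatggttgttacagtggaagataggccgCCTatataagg
Rpl4: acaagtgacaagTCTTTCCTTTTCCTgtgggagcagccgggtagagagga
Rps6: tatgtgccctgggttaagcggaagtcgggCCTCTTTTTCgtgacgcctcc

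The run was 10 letters in Rpl22l1 and Rps6, 14 in Rpl4, 9 in Rps27 and Rps27l, 4 in Rpl22 and 3 in Rpl10. In Rps6, Rps27, Rpl12 and Rpl22l1 it began within 2 bases of the annotated start. The runs depend on where the start is annotated, and sources can differ. GENCODE M21 has the start of Rpl22 at chr4:152325742, in the last bases of the window printed above. A short run here therefore does not show that a gene lacks a TOP motif. Of the 56 core genes with an entry, 29 (51.8%) held a run of at least 8 C or T letters between 20 bases before and 30 after the start, and 18.8% of all 27025 promoters did. The letters CTTCCG, on either strand of the 300 bases, were in 69.6% of the core promoters and 17.2% of all promoters. GGGCGG was in 58.9% and 35.9%, AAGATGG in 14.3% and 6.48%, and TATAAA in 8.93% and 14.2%. These are matches of letters and not sites of a factor.

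The levels of the members spanned a wide range. Per kilobase of exon (all annotated exons of a gene merged), the mean level over 16 libraries was highest for Rplp1 at 417 CPM per kilobase, Rps2 at 249.9 and Rps3a1 at 237. RPLP1 is a stalk protein that contacts the GTPase elongation factors, RPS2 lies at the mRNA entry of the small subunit, and RPS3A is a small subunit protein. With the length of the main coding transcript in place of merged exons, Rps2 was highest at 458 CPM per kilobase and Rps3a1 moved to rank 12. Rpl12 at 2.17, Rpl37rt at 3.63 and Rpl5 at 3.77 CPM per kilobase were lowest, and Rpl12, Rpl5 and Rpl37rt were also the lowest 3 on coding transcript length, although their order differed. Rps23rg1 had no annotated length.

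The low levels of Rpl12 and Rpl5 stood beside high counts of annotated gene copies with the same coding sequence. Ribosomal protein genes have many processed pseudogenes, and a read from an identical stretch fits both loci. Near copies were defined as genes outside the 84 members whose transcript matched at least 80% of a member's coding sequence at 95% identity or more. They were annotated for 74 of the 84 members, and 356 of the 527 copies had reads in the second deposited table. Rps4l, Rpl37rt and Rps23rg1 are members and were thus not counted as copies. Reads that they may share with their parents were not pooled. In 16 members the copies held over 5% of the pooled reads, and in 6 members they held over 50%. For Rpl12, 93.0% of the pooled reads were on copies, nearly all on Gm10275 (chr10:29698746-29699380, minus strand, an annotated processed pseudogene). For Rpl5, 92.4% were on copies, nearly all on Gm15500 (chr7:114705217-114706235, minus strand). For Rps12 the share was 93.7%, mainly on Rps12-ps3, for Rpl27a 70.3%, for Rpl10 66.3%, mainly on Rpl10-ps3 (chr9:50344201-50344968, minus strand), and for Rps23 51.3%. All 642 coding bases of Rpl10 were identical in Rpl10-ps3, as were all 495 of Rpl12 in Gm10275, all 396 of Rps12 in Rps12-ps3 and all 891 of Rpl5 in Gm15500. The opening 50 coding bases of Rpl10 and Rpl12 and of their copies show this, from GENCODE M21 transcripts, with no capitals because no base differs.
Rpl10: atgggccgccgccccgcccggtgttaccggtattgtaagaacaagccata
Rpl10-ps3: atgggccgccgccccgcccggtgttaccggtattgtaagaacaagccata
Rpl12: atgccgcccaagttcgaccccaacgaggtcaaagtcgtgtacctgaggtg
Gm10275: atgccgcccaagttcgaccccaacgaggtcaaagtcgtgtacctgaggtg

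The division of reads between a member and its copies is therefore an estimate, and for Rpl5, Rpl10, Rpl10a and Rpl12 values with the copies added are given beside the genotype comparison on chow. The deposited counts are not all whole, and what made the decimals is not given in the sources used here: 51.1% of all values and 27.4% of member values were whole numbers to within 1e-06. Rps19bp1 was whole in 100% of libraries, Rps27l in 93.8%, and Rpl10, Rpl12, Rpl5, Rps6 and Rpl10a in none. With the copies added, the level per kilobase was 31.1 CPM for Rpl12, 49.6 for Rpl5 and 61.3 for Rps12.

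**Figure D1:**
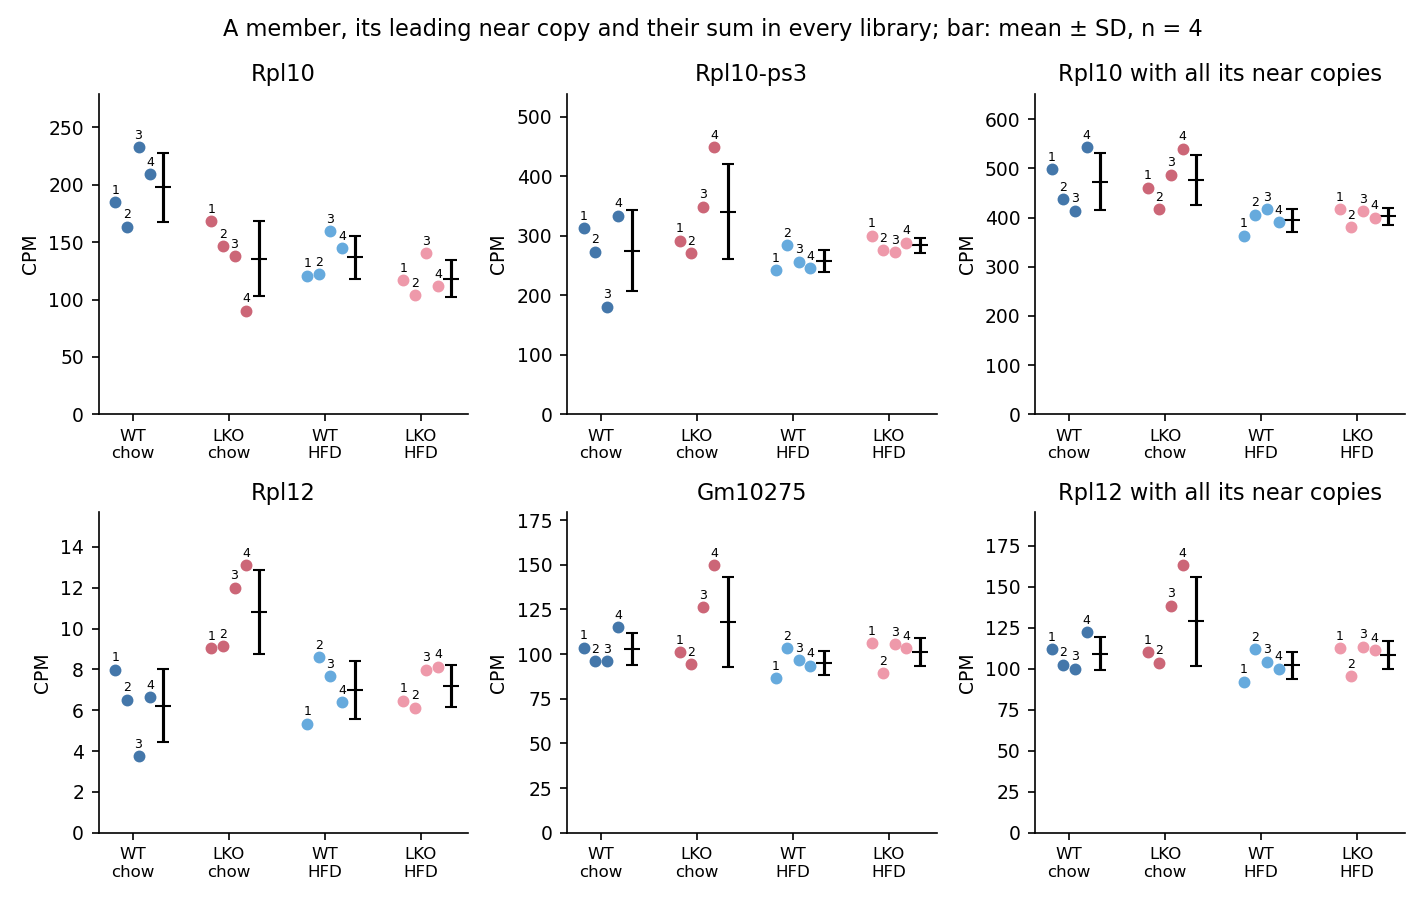
CPM of Rpl10 (top) and Rpl12 (bottom), of the leading near copy of each and of the member with all its near copies, in each of the 16 libraries (numbered points, bar for mean ± SD, n = 4). Rpl10 was lowest in LKO chow library 4 at 90.2 CPM, where Rpl10-ps3 was highest at 449 CPM.

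On chow, Arglu1 knockout livers had 8 of 84 members called, which is 9.52% of them, while 24.7% of all 14434 genes tested were called (edgeR quasi-likelihood test, adjusted p below 0.05 over all genes). The 5 members that were higher in LKO were Rpl22l1, Rps27l, Rps4l, Rpl12 and Rpl10a, beside 12.9% of all genes, and the 3 that were lower were Rpl10, Rps6 and Rpl4, beside 11.8%. The split depended on scaling and tool: DESeq2 size factors in edgeR gave 4 higher and 5 lower, upper-quartile scaling gave 5 higher and 1 lower, scaling by total counts 6 higher and 0 lower, and DESeq2 5 higher and 9 lower. At an unadjusted p below 0.05 there were 15 members, beside 36% of all genes. Of the 5 paralogs, 3 were higher by edgeR and none of their parents was called by it, whereas DESeq2, limma-voom and edgeR with DESeq2 size factors each called the parent Rps4x lower. The median log2 fold change of the 84 members was -0.0028, beside 0.02 over all genes tested, and leaving out 1 library turned its sign, from -0.12 without WT chow library 3 to 0.07 without WT chow library 4. In 3 members all LKO libraries were above all WT libraries, beside 11.4% of all genes, and in 5 all were below, beside 9.96%.

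Rpl22l1, the paralog of Rpl22 (chr3:28805436-28807424, GRCm38, plus strand), had the largest difference. Its levels were 13.5, 13.2, 8.29 and 12.2 CPM in the WT chow libraries and 24.2, 22.3, 30.8 and 39.4 CPM in the LKO chow libraries. Every LKO library was above every WT library. The log2 fold change was 1.30 ± 0.18 (SE; edgeR adjusted p = 5.12e-05).

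Rps27l, the paralog of Rps27 and in human cells a target of p53 (chr9:66946086-66949516, plus strand), was at 82.0, 79.2, 71.7 and 107 CPM in WT chow and at 102, 111, 148 and 158 CPM in LKO chow. The groups overlapped, because LKO library 1 was below WT library 4. The log2 fold change was 0.61 ± 0.14 (SE; edgeR adjusted p = 0.0037). Rps4l, related to the X-linked Rps4x and annotated in GENCODE as a transcribed processed pseudogene (chr6:148354656-148355598, plus strand), was at 8.08, 5.07, 8.77 and 5.99 CPM in WT chow and at 8.06, 15.03, 12.1 and 11.9 CPM in LKO chow. LKO library 1 lay within the WT range. Its log2 fold change was 0.76 ± 0.22 (SE; edgeR adjusted p = 0.0162), and the call was lost without WT library 2 (adjusted p = 0.0549) or LKO library 2 (adjusted p = 0.0514).

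Rpl12, a protein at the base of the stalk, was at 7.98, 6.53, 3.74 and 6.64 CPM in WT chow and at 9.05, 9.14, 12.0 and 13.1 CPM in LKO chow, with no overlap. The log2 fold change was 0.80 ± 0.21 (SE; edgeR adjusted p = 0.00894). With its near copies added, levels were 112, 102, 99.96 and 122 CPM in WT chow and 110.0, 104, 138 and 163 CPM in LKO chow, the groups overlapped, and the log2 fold change was 0.24 ± 0.12 (SE; edgeR adjusted p = 0.18). Rpl10a, a protein of the L1 stalk of the large subunit, was at 112, 99.5, 77.2 and 114 CPM in WT chow and at 126, 116, 124 and 155 CPM in LKO chow. The log2 fold change was 0.38 ± 0.13 (SE; edgeR adjusted p = 0.0446), and it was 0.30 ± 0.09 (SE; edgeR adjusted p = 0.0206) with its copy Rpl10a-ps1 added. All LKO libraries were above all WT libraries for Rpl10a. The call without copies was lost when WT chow library 2 or 3, LKO chow library 1, 3 or 4, WT HFD library 3 or 4, or LKO HFD library 2 or 3 was left out, with adjusted p up to 0.152.

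Rpl10, which joins the large subunit late, in the cytoplasm, was lower as deposited and not once its copies were counted. Its levels were 185, 164, 233 and 209 CPM in WT chow and 168, 146, 137 and 90.2 CPM in LKO chow, with a log2 fold change of -0.54 ± 0.16 (SE; edgeR adjusted p = 0.0214). The groups overlapped, and the call was lost without WT library 3 (adjusted p = 0.0739), WT library 4 (adjusted p = 0.0516) or LKO library 4 (adjusted p = 0.0565). Rpl10-ps3 ran the other way, with 313, 273, 181 and 334 CPM in WT chow and 292, 270.2, 349 and 449 CPM in LKO chow. WT library 3 had the highest Rpl10 and the lowest Rpl10-ps3 of its group, and LKO library 4 the lowest Rpl10 and the highest Rpl10-ps3. The sum over Rpl10 and its near copies was 498, 437, 414 and 543 CPM in WT chow and 461, 417, 487 and 539.6 CPM in LKO chow, and its log2 fold change was 0.01 ± 0.10 (SE; edgeR adjusted p = 0.967).

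Rps6, the substrate of the S6 kinases, was at 273, 246, 249 and 279 CPM in WT chow and at 234, 219.99, 204 and 236 CPM in LKO chow, without overlap. Its log2 fold change was -0.23 ± 0.08 (SE; edgeR adjusted p = 0.0343), and -0.18 ± 0.07 (SE; edgeR adjusted p = 0.0712) with copies added. Rpl4, which lines the exit tunnel of the large subunit, was at 425, 392, 402 and 438 CPM in WT chow and at 362, 356, 358 and 359 CPM in LKO chow. All LKO libraries were below all WT libraries, with a log2 fold change of -0.21 ± 0.07 (SE; edgeR adjusted p = 0.0368). The Rps6 call was lost without WT chow library 1 or 4 or LKO chow library 2 or 3, with adjusted p up to 0.119. The Rpl4 call was lost without WT chow library 1 or 4, LKO chow library 1, 3 or 4, WT HFD library 3 or 4, or LKO HFD library 1, 2 or 4, with adjusted p up to 0.0963. Neither gene was called with upper-quartile or total-count scaling, where log2 fold changes were -0.18 and -0.14 for Rps6 and -0.16 and -0.11 for Rpl4.

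RPL5 and RPL11 form a particle with 5S ribosomal RNA that binds the p53 inhibitor MDM2, which RPL23 and RPL26 also bind. On chow none of the 4 genes was called by edgeR, DESeq2 or limma-voom, and none had an unadjusted p below 0.05 by edgeR. Rpl11 was at 179.6, 152, 109 and 189 CPM in WT chow and at 158, 154, 194 and 208 CPM in LKO chow, with overlapping groups (log2 fold change 0.18 ± 0.14 SE; edgeR adjusted p = 0.381). Rpl5 alone was at 16.9, 12.2, 17.1 and 14.97 CPM in WT chow and at 13.6, 16.6, 17.6 and 19.4 CPM in LKO chow (log2 fold change 0.13 ± 0.13 SE; edgeR adjusted p = 0.488). With its near copies Rpl5 summed to 227, 217, 205 and 230.3 CPM in WT chow and to 195, 189.8, 168 and 194 CPM in LKO chow. These sums did not overlap, and they were lower in LKO by a log2 fold change of -0.24 ± 0.07 (SE; edgeR adjusted p = 0.0237). With near copies added for all members, 6 were called on chow: Rpl10a, Rpl22l1, Rps27l and Rps4l were higher and Rpl4 and Rpl5 lower.

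On HFD, Rpl22l1 and Rps27l were called higher in LKO and no member lower, 2.38% of members beside 17.9% of all genes (10.3% higher and 7.57% lower). Rpl22l1 was at 11.3, 17.3, 13.9 and 12.8 CPM in WT HFD and at 28.5, 25.9, 25.6 and 26.5 CPM in LKO HFD, with a log2 fold change of 0.94 ± 0.18 (SE; edgeR adjusted p = 0.00108). Rps27l was at 77.1, 91.7, 79.4 and 79.0 CPM in WT HFD and at 124, 114, 109.8 and 126 CPM in LKO HFD, with a log2 fold change of 0.54 ± 0.14 (SE; edgeR adjusted p = 0.0111). For both genes every LKO library was above every WT library. In the fit of all 16 libraries no member was called lower. There 6 members had an unadjusted p below 0.05 in either direction, beside 30.7% of all genes. DESeq2 called the same 2 genes higher and 0 lower. Limma-voom with quality weights called 4 higher and 2 lower, beside 31.3% of all genes called. The 4 groups share 1 estimate of spread in the edgeR fit. Fitted on the HFD groups alone, edgeR called 4 members higher, adding Rps4l and Rps23rg1, and 4 lower, Rpl8, Rpl27, Rpl37a and Rps28. In that fit 3618 of 14077 genes were called. Fitted on the chow groups alone, 4 members were higher and 0 lower, with 2152 of 13954 genes called. In 4 members all LKO libraries were above all WT libraries (Rpl22l1, Rps27l, Rps13 and Rps23rg1), beside 15% of all genes, and in 5 all were below (Rpl4, Rpl8, Rpl18, Rpl37a and Rps28), beside 12.7%. With near copies added, Rps13 overlapped between genotypes on HFD. Its sums were 82.1, 92.0, 81.0 and 85.6 CPM in WT HFD and 82.1, 80.5, 86.5 and 88.0 CPM in LKO HFD.

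Rps4l was at 5.43, 10.03, 8.39 and 7.05 CPM in WT HFD and at 10.99, 10.3, 9.88 and 14.1 CPM in LKO HFD (log2 fold change 0.55 ± 0.21 SE; edgeR adjusted p = 0.0878). Rpl12 was at 5.35, 8.60, 7.67 and 6.40 CPM in WT HFD and at 6.48, 6.12, 7.99 and 8.14 CPM in LKO HFD (log2 fold change 0.04 ± 0.21 SE; edgeR adjusted p = 0.926). Its difference between genotypes was thus 0.80 on chow and 0.04 on HFD, and the interaction of genotype and diet for Rpl12 was -0.76 (unadjusted p = 0.0184, edgeR adjusted p = 0.493). With its near copies added, Rpl12 summed to 92.0, 112, 104 and 99.97 CPM in WT HFD and to 112, 95.6, 113 and 111 CPM in LKO HFD. The log2 fold change of the sums was 0.08 ± 0.12 on HFD (SE; edgeR adjusted p = 0.708) and their interaction was -0.15 ± 0.18 (SE; edgeR adjusted p = 0.798). No member passed the interaction test, in which 0.0208% of all genes were called. Rpl12 alone had an unadjusted p below 0.05 by edgeR, beside 8.75% of all genes, and with near copies added 0 members did. DESeq2 and limma-voom called 0 members. The median over members was -0.03 on HFD, beside -0.01 over all genes.

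**Figure D2:**
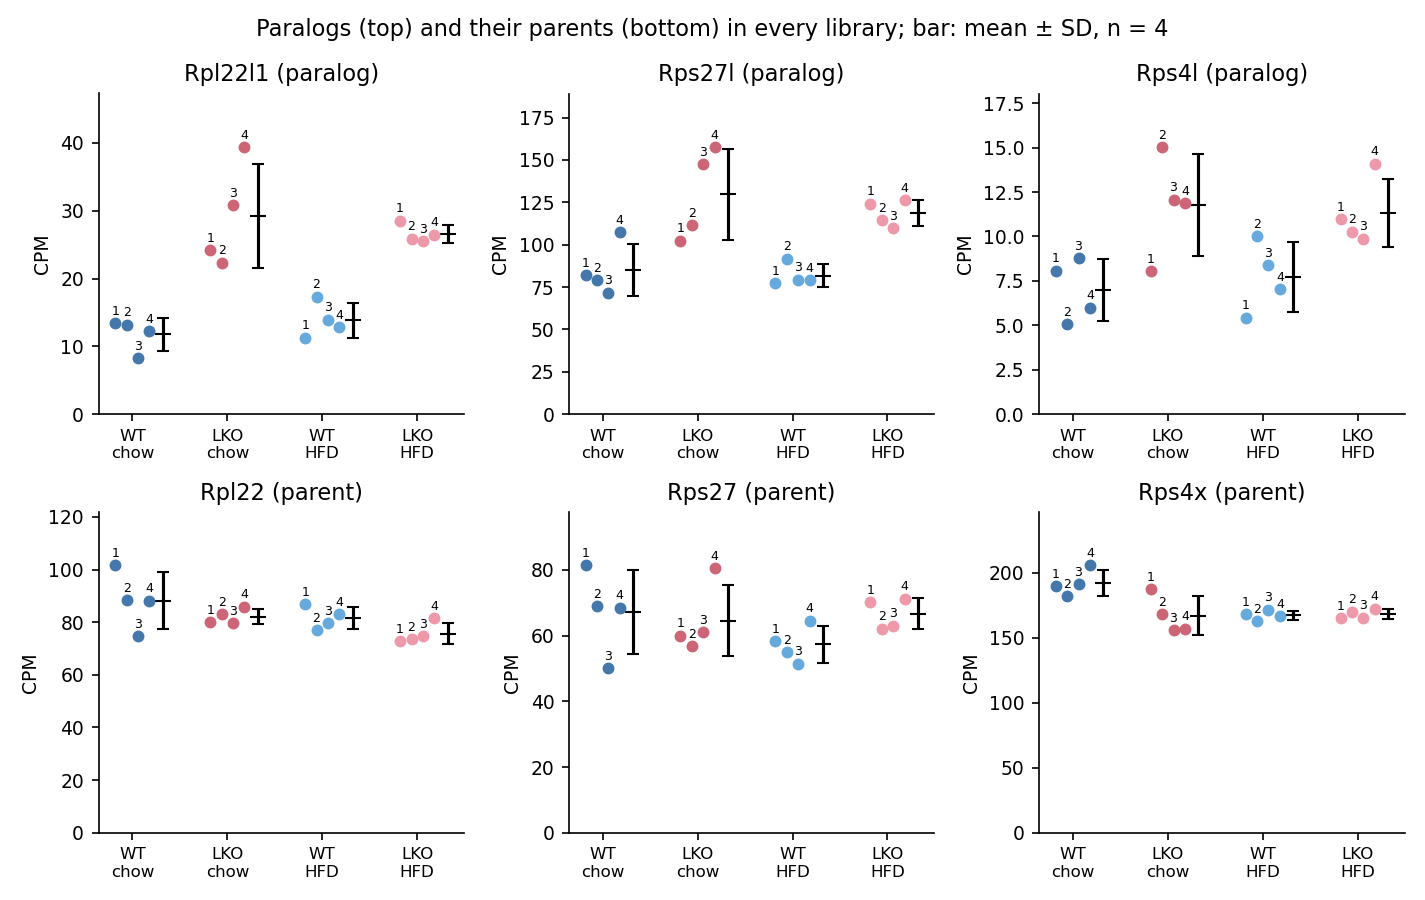
CPM of Rpl22l1, Rps27l and Rps4l (top) and of their parents Rpl22, Rps27 and Rps4x (bottom) in each of the 16 libraries (numbered points, bar for mean ± SD, n = 4). Rpl22l1 lay between 22.3 and 39.4 CPM in the 8 LKO libraries and between 8.29 and 17.3 CPM in the 8 WT libraries.

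The paralog was set against its parent as a share of the CPM of the pair in each library, a ratio that does not depend on library size. Rpl22l1 made up 11.7% ± 1.27 (SD, n = 4) of the pair with Rpl22 in WT chow, 25.97% ± 4.61 in LKO chow, 14.5% ± 2.90 in WT HFD and 26.04% ± 1.56 in LKO HFD. The parent did not pass the test: Rpl22 was at 102, 88.5, 74.7 and 88.1 CPM in WT chow and at 79.96, 83.0, 79.5 and 85.9 CPM in LKO chow (log2 fold change -0.10 ± 0.09 SE; edgeR adjusted p = 0.427). Rps27l made up 55.9% ± 4.95 in WT chow, 66.6% ± 3.16 in LKO chow, 58.8% ± 3.43 in WT HFD and 64.0% ± 0.529 in LKO HFD. Rps27 was at 81.3, 68.9, 50.1 and 68.5 CPM in WT chow and at 59.9, 56.8, 60.9 and 80.5 CPM in LKO chow (log2 fold change -0.06 ± 0.13 SE; edgeR adjusted p = 0.796). The shares of Rpl22l1 and Rps27l did not overlap between genotypes on either diet, each with an exact 2-sided permutation p = 0.0286, the smallest that 4 against 4 libraries can give. Over the 20 tests of shares the Benjamini-Hochberg adjusted exact permutation p was 0.114 for each of them, so none passed 0.05. To pass, many of the 20 tests would have had to reach that smallest p, so the lack of a pass cannot decide whether the shares differ.

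Rps4l made up 3.50% ± 0.857 of the pair with Rps4x in WT chow and 6.64% ± 1.75 in LKO chow (exact permutation p = 0.0571, adjusted p = 0.19), and 4.41% ± 1.12 in WT HFD and 6.28% ± 0.892 in LKO HFD (exact permutation p = 0.0857, adjusted p = 0.214). Rps4x itself was at 189.8, 182, 191 and 206 CPM in WT chow and at 187, 168, 156 and 157 CPM in LKO chow (log2 fold change -0.20 ± 0.08 SE; edgeR adjusted p = 0.06). The other pairs gave other pictures. Rpl36al held 72.4% ± 1.41 of the pair with Rpl36a in WT HFD and 68.3% ± 0.758 in LKO HFD, without overlap (exact permutation p = 0.0286, adjusted p = 0.114), and the groups overlapped on chow. Near copies held 26.7% of the pooled reads of Rpl36a, and these shares were taken without them, so the parent may be undercounted. Rpl7l1 was at 63.4, 59.2, 62.4 and 62.0 CPM in WT chow and at 49.98, 56.03, 53.2 and 55.2 CPM in LKO chow, without overlap and just outside the threshold (log2 fold change -0.20 ± 0.07 SE; edgeR adjusted p = 0.0526). It was called lower by DESeq2, by edgeR with DESeq2 size factors, in the second table, and without LKO chow library 2 or LKO HFD library 3. Its share of the pair with Rpl7 was between 16.8% and 20.96% in all libraries. The retroposed Rps23rg1, a copy of Rps23, was at 4.41, 6.74, 5.08 and 4.63 CPM in WT HFD and at 8.95, 6.89, 8.96 and 7.99 CPM in LKO HFD, without overlap (log2 fold change 0.65 ± 0.25 SE; edgeR adjusted p = 0.0875), and the groups overlapped on chow. The diet comparisons of the 5 shares gave adjusted exact permutation p values from 0.214 to 0.971.

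**Figure D3:**
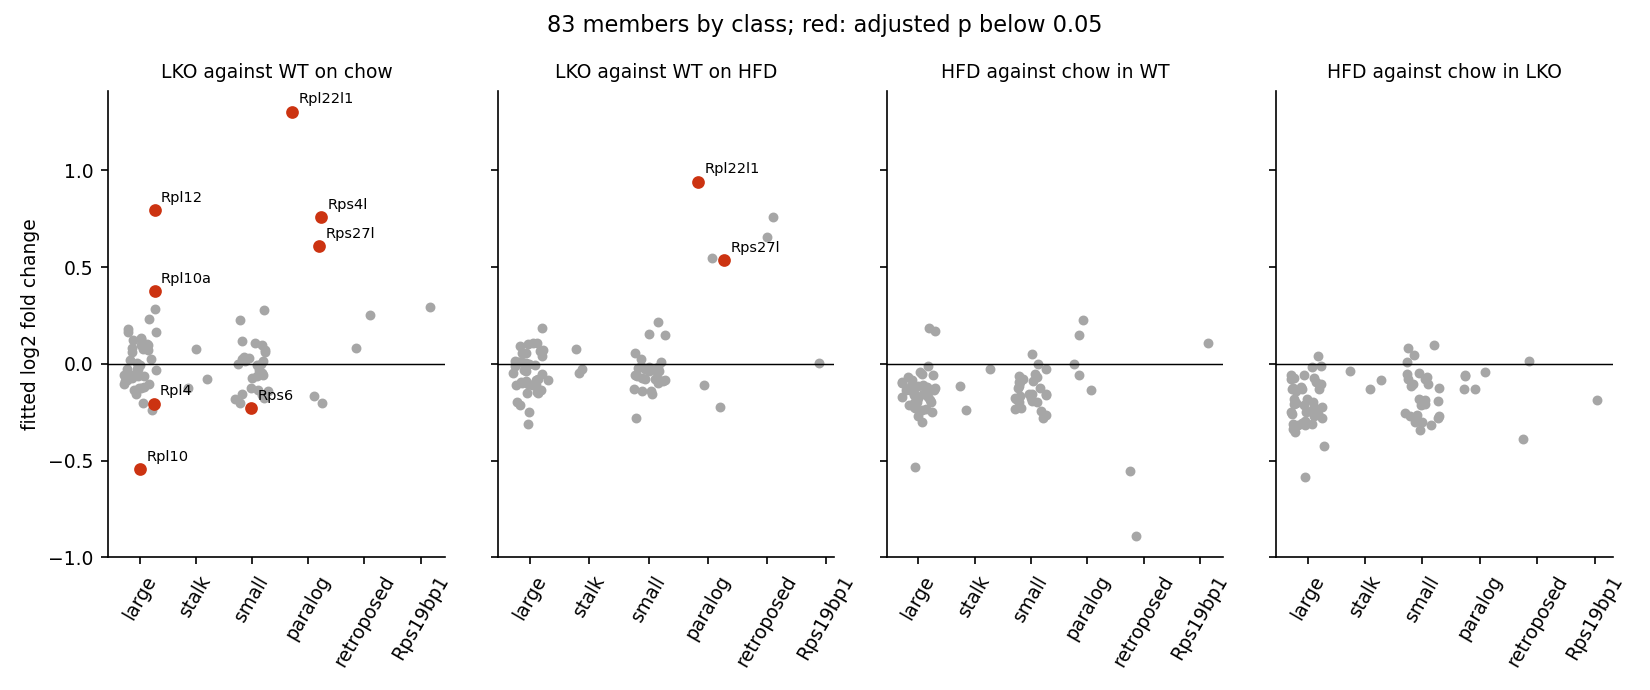
Fitted log2 fold changes of 83 of the 84 members by class in the 4 pairwise comparisons, red where the edgeR adjusted p is below 0.05. On chow Rpl22l1 stands highest at 1.30 and Rpl10 lowest at -0.54, and in both diet comparisons nearly all points lie below 0.

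High-fat feeding was accompanied by slightly lower fitted values across the members, and almost none passed the test. In WT liver 0 members were called, beside 2.04% of all genes. By edgeR 17 members had an unadjusted p below 0.05, beside 15.4% of all genes. DESeq2 called 9 members lower, beside 2.7% of all genes, and limma-voom 6, beside 2%. Rpl4, Rps3a1, Rps6 and Rps14 were among those called by both. Fitted values were below 0 for 78 of 84 members (92.9%) and for 48.7% of all genes, and the median log2 fold change was -0.14 beside 0.01 over all genes. Scaled by total counts, the medians were -0.05 and 0.10, with 62 members below 0. In 14 members, all of them core genes, every HFD library was below every chow library, and in 0 members above, beside 5.05% and 4.48% of all genes. Among them were Rpl3, Rpl4, Rpl7, Rpl7a, Rpl10, Rpl17, Rpl26, Rplp0, Rps3a1, Rps4x, Rps6, Rps14 and Rps24. With near copies added, Rpl10 overlapped between diets, at 498, 437, 414 and 543 CPM on chow and at 363, 406, 416 and 391 CPM on HFD. Rpl5 with its near copies did not overlap, at 227, 217, 205 and 230.3 CPM on chow and at 196, 192, 196 and 189.8 CPM on HFD.

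Rps6 and Rps3a1 were among the members with the lowest p. In WT HFD, Rps6 was at 218, 221, 213 and 212 CPM, all under the chow libraries (log2 fold change -0.28 ± 0.08 SE; edgeR adjusted p = 0.0646). Rps3a1 was at 258, 249, 252 and 267 CPM on chow and at 223, 214, 213 and 216 CPM on HFD (log2 fold change -0.24 ± 0.07 SE; edgeR adjusted p = 0.068).

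In LKO liver 1 member was called lower on HFD, which is 1.19% of members beside 2.22% of all genes called and 1.07% called lower. The count was between 0 and 3 when 1 library was left out. DESeq2 also called 1 member, and limma-voom called 19 members lower, beside 6.08% of all genes. By edgeR 19 members had an unadjusted p below 0.05, beside 17.6% of all genes. Again 78 of 84 members had fitted values below 0, beside 50.1% of all genes, with a median of -0.19 beside -0.0008 over all genes. In 18 members every HFD library was below every chow library and in 0 members above, beside 4.77% and 5.4% of all genes. Rpl12 was among the 18. With near copies added it overlapped, at 110.0, 104, 138 and 163 CPM on chow and at 112, 95.6, 113 and 111 CPM on HFD. Rpl10a, Rpl13, Rpl27a, Rpl28, Rps16 and Rps20 were not among the 18 and did not overlap with their near copies added. Both diet comparisons use different libraries, and 5 members were without overlap in both, 5 of 14 in WT and 5 of 18 in LKO, beside 0.901% of all genes, among them Rpl4, Rpl7, Rpl7a and Rps14.

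The size of the shift over the members depended on which chow libraries were fitted. In WT the median was -0.24 without chow library 3 and -0.07 without chow library 4. In LKO it was between -0.22 and -0.13 with 1 library left out. It was -0.29 with 25 members called lower when chow libraries 1 and 2 were left out, and -0.06 with 0 called when chow libraries 3 and 4 were left out. The same pairs moved the genotype count on chow, to 13 members without LKO libraries 1 and 2 and to 1 member, Rpl22l1, without LKO libraries 3 and 4. The number of all genes called moved with these libraries too, so the member counts are not a result about the members alone. For diet in LKO it was 320 of 14434 with all libraries. It was 656 of 14549 without LKO chow library 2 and 117 of 14533 without LKO chow library 3. Summed CPM of the 11 hepatocyte markers also differed with diet, between 102774 and 132843 in WT chow and between 79027 and 83791 in WT HFD, and between 123709 and 137466 in LKO chow and between 96793 and 109464 in LKO HFD. Summed CPM of 12 stellate cell and fibroblast markers was between 355 and 545 in WT chow and between 487 and 713 in WT HFD. Of 13 macrophage and Kupffer cell markers and 12 endothelial markers none was called by edgeR in any comparison, and none of the markers of these 4 cell types was at 0 in all libraries. Between genotypes on chow, 5 of the 11 hepatocyte markers and 2 of 8 B and plasma cell markers were called lower in LKO, beside 11.8% of all genes. None of these was called higher. Markers called higher in LKO were 1 of 7 bile duct, 1 of 9 T and NK cell and 1 of 6 red blood cell markers, beside 12.9%. The summed CPM of the B and plasma cell markers was between 46.7 and 268 in WT chow and between 50.1 and 91.3 in LKO chow. The part of these markers in the diet and genotype values was not tested, and in bulk liver fewer cells of a type and less RNA per cell cannot be told apart.

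Together the members held 1.10%, 1.02%, 0.842% and 1.10% of all counts in the WT chow libraries and 1.01%, 0.985%, 1.07% and 1.15% in the LKO chow libraries. The share was between 0.951% and 0.971% in WT HFD and between 0.893% and 0.979% in LKO HFD. Chow libraries thus spread more widely than HFD libraries: the median coefficient of variation of a core gene was 16.3% in WT chow, 11.7% in LKO chow, 4.86% in WT HFD and 4.93% in LKO HFD. With near copies added, the mean share was 1.13% ± 0.136 (SD, n = 4) in WT chow, 1.18% ± 0.0919 in LKO chow, 1.07% ± 0.0131 in WT HFD and 1.05% ± 0.0414 in LKO HFD.

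**Figure D4:**
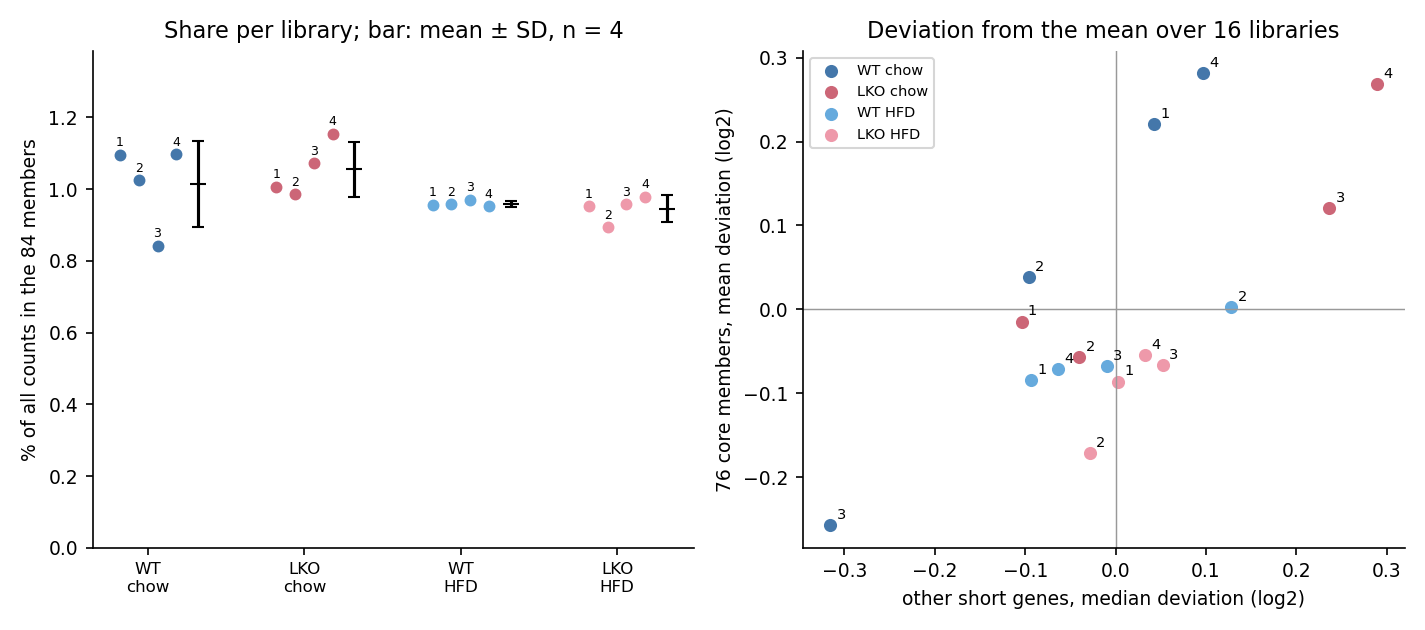
Left, percent of all counts held by the 84 members in each library (numbered points, bar for mean ± SD, n = 4). Right, the mean log2 deviation of the 76 core genes in each library against the median deviation of 957 other genes with a main coding transcript under 1000 bases: WT chow library 3 is lowest on both axes at -0.26 and -0.32.

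The core genes moved together from library to library. Over the 16 libraries the correlation of a large subunit gene with the mean of the other core genes had a median of 0.854, and that of a small subunit gene 0.84, a description over libraries that share depth and preparation. Rps18 was highest at 0.981. Rps4x at 0.119 and Rpl10 at -0.0243 were the core genes least like the rest, and the retroposed Rpl37rt was at -0.195. The Rpl10 value was taken without its near copies, which held between 43.7% and 83.3% of the pooled reads, depending on the library. Its correlation with the copies added was not computed. The paralogs Rpl22l1 and Rps27l were at 0.204 and 0.376 over all libraries, and at 0.805 and 0.788 once each group's mean had been removed. WT chow library 3 was the lowest of its group in 63 of 76 core genes, WT chow library 4 the highest in 63, and LKO chow library 4 the highest of its group in 66. LKO HFD library 2 was the lowest of its group in 58.

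The deviation varied with gene length in some libraries. In WT chow library 3 the 25 core genes with under 400 coding bases had a median deviation of -0.42 (log2) from their mean over all libraries, the 30 genes with 400 or more but under 600 bases -0.24, and the 21 genes with 600 or more bases 0.01. Across the 76 core genes, which are not independent, Spearman's rho between coding length and deviation was 0.632 in WT chow library 3, 0.515 and 0.418 in LKO chow libraries 1 and 2, -0.461 in WT HFD library 2 and -0.323 in LKO chow library 4, and between -0.236 and 0.0104 in the other 11 libraries. Among 957 genes outside the group with a main coding transcript under 1000 bases, the median deviation was -0.32 in WT chow library 3 and 0.29 in LKO chow library 4, and 79 mitochondrial ribosomal protein genes averaged -0.24 and 0.17. The diet difference in WT had a median of -0.11 in the short, -0.14 in the middle and -0.20 in the long class, and was below 0 in 23 of 25, 29 of 30 and 21 of 21 genes. The part of gene length in the library differences was not tested.

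**Figure D5:**
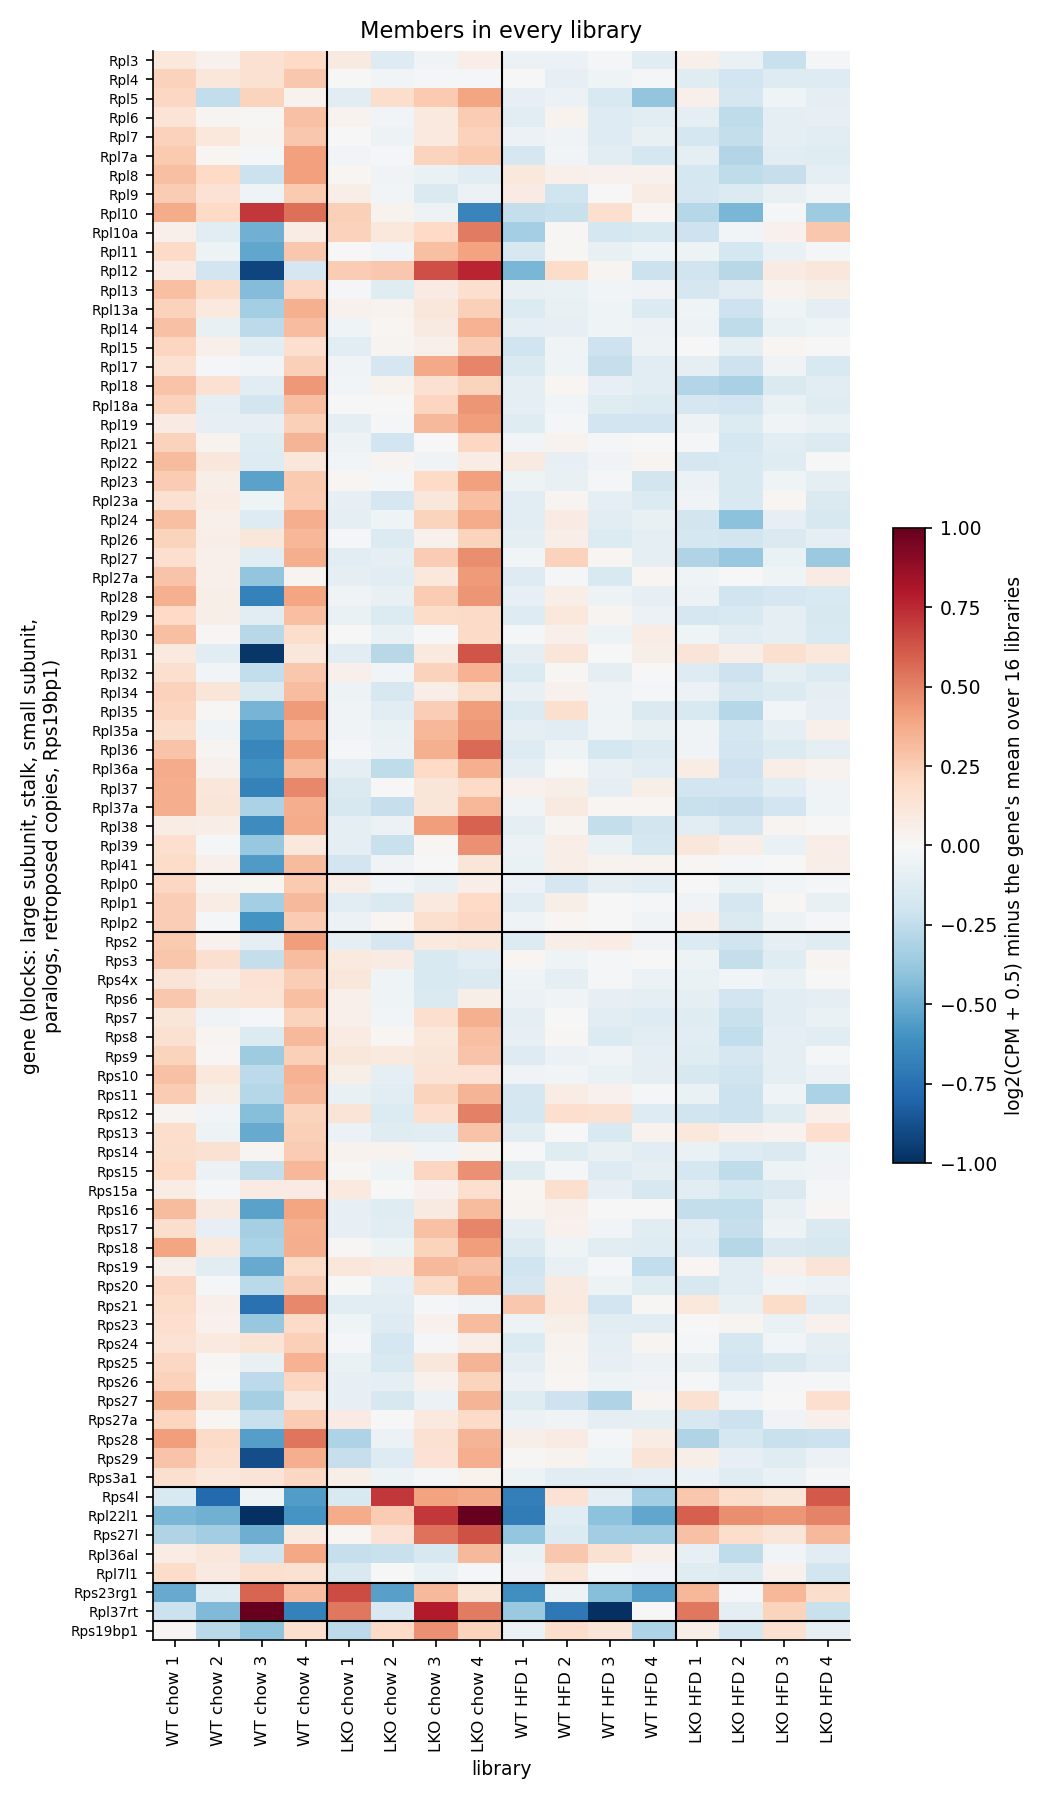
log2(CPM + 0.5) of 83 of the 84 members in each of the 16 libraries, minus the gene's mean over the libraries, on a colour scale from -1 to 1. Most core genes are low in WT chow library 3 and high in WT chow library 4 and LKO chow library 4, whereas Rpl22l1, Rps27l and Rps4l are mostly high in LKO libraries and low in WT libraries.

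Genes that make or regulate the ribosome were described from lists of known members. Of 19 translation factors and RNA-binding proteins with TOP mRNAs, 4 were lower and 0 higher in LKO on chow, and 1 was lower on HFD, beside 11.8% of all genes lower on chow and 7.57% on HFD. Hnrnpa1, an RNA-binding protein of splicing, had log2 fold changes of -0.43 ± 0.08 (SE; edgeR adjusted p = 0.00093) on chow and -0.52 ± 0.08 (SE; edgeR adjusted p = 0.000212) on HFD. Pabpc1, the poly(A)-binding protein, was called on chow at -0.27 ± 0.08 (SE; edgeR adjusted p = 0.025), and Eif4b, which helps the helicase of the cap complex, at -0.50 ± 0.13 (SE; edgeR adjusted p = 0.0101). The list's median was -0.12 on chow and 0.01 on HFD. In the diet comparisons 0 of the 19 were called, beside 2.04% of all genes in WT and 2.22% in LKO. By edgeR 8 had an unadjusted p below 0.05 in WT, beside 15.4% of all genes, and 2 in LKO, beside 17.6%.

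Of 60 ribosome biogenesis factors, 2 were higher and 5 lower in LKO on chow, and 0 were higher and 12 lower on HFD, where the median was -0.12. The shares of all genes called lower were 11.8% on chow and 7.57% on HFD. Nmd3, the export adaptor of the large subunit, had log2 fold changes of -0.31 ± 0.09 (SE; edgeR adjusted p = 0.0205) on chow and -0.58 ± 0.09 (SE; edgeR adjusted p = 0.000213) on HFD. Nvl and Mdn1, ATPases that strip factors from the large subunit precursor, were at -0.56 ± 0.11 (SE; edgeR adjusted p = 0.00107) and -0.49 ± 0.13 (SE; edgeR adjusted p = 0.0149) on HFD. Mphosph10, a component of the small subunit processome, was at -0.64 ± 0.15 (SE; edgeR adjusted p = 0.00512) on HFD and at -0.04 on chow (edgeR adjusted p = 0.879). Of 15 genes of RNA polymerase I and its factors, 1 was lower on chow and 2 on HFD, among them Polr1b, a core subunit, on both diets.

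Of 16 genes of the mTORC1 pathway, 4 were higher and 4 lower on chow and 3 higher and 1 lower on HFD, beside 24.7% of all genes called on chow and 17.9% on HFD. Sesn2, which inhibits mTORC1 when leucine is short, was higher by 0.79 ± 0.17 (SE; edgeR adjusted p = 0.00224) on chow and by 0.94 ± 0.17 (SE; edgeR adjusted p = 0.000645) on HFD, and Tsc2, another inhibitor of the complex, was lower by -0.41 ± 0.08 (SE; edgeR adjusted p = 0.00115) on chow and -0.34 ± 0.08 (SE; edgeR adjusted p = 0.00528) on HFD. Of the 79 mitochondrial ribosomal protein genes, 3 were lower on chow, and 2 were higher and 1 lower on HFD.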

How the data were processed

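Both deposited tables hold estimated counts per gene, not whole reads; the authors' processing notes name mm10, Bowtie2 and DESeq2 with no version or role, and the counting tool is not given in the sources used here. In the second deposited table the 8 chow columns stand 1 row below their gene and were moved up, after which 1 value differs from the counts table. Counts were rounded, and all 16 libraries were fitted with 1 mean per group in edgeR 4.0.16 (TMM, default expression filter, quasi-likelihood test, Benjamini-Hochberg over 14434 genes, called below 0.05), checked on simulated data. DESeq2 1.42.0 and limma 3.58.1 were alternatives. CPM uses TMM-scaled library sizes. Near copies were found with BLAST 2.17.0 in GENCODE M21. The count models assume that estimated counts behave as reads, which is less sure for members with copies. Named genes were the called members with lowest p or largest change, paralogs and parents, Rpl5, Rpl11, the 3 highest and 3 lowest per kilobase, and up to 4 genes per list. The members and lists were chosen with earlier results of these data known. Results on 1 member and on 1 further list are not reported here, and that member is not drawn among the single genes of the figures.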

Additional observations from a re-analysis of the deposited data

Results flagged for a closer look

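Among 112 groups of 4 libraries tested over the named members and shares, 6 held a library whose gap to the next exceeded Dixon's critical value, and chance gives about 1 in 20. Rpl36al was at 93.7 CPM in LKO chow library 4, where the others lay between 63.6 and 66.8 CPM. The retroposed copy Rpl37rt was at 6.95 CPM in WT chow library 3, where the others lay between 1.34 and 2.04 CPM. LKO HFD library 2 was low for Rpl4, at 318 CPM against 331 CPM in the nearest library, and for Rpl36a, at 27.7 CPM against 32.9 CPM. WT HFD library 2 was high for Rps27l, at 91.7 CPM against 79.4 CPM, and for Rpl7l1, at 60.6 CPM against 55.2 CPM. Rpl3l, a paralog of Rpl3 known from muscle, is in the second table alone: it was at 3.18 CPM in LKO HFD library 2 and 0.536 CPM in LKO HFD library 4, above the highest WT library at 0.271 CPM. All other LKO libraries were between 0 and 0.220 CPM, under that WT library. Only LKO libraries above all WT libraries had been looked for.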

How the results depend on the processing

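Rpl22l1 was called on both diets under all 32 alternatives, and Rps27l under all 32 on HFD and 31 of 32 on chow, the exception leaving out LKO chow libraries 3 and 4 (adjusted p = 0.0976). On chow, 8 members called became 14 by DESeq2, 4 when fitted on the compared groups only, 13 without LKO chow libraries 1 and 2, 1 without libraries 3 and 4, and 5 to 10 with 1 library left out. On HFD, 2 became 6 by limma-voom, 8 on the compared groups only and 5 without LKO chow libraries 1 and 2. For diet in WT, 0 became 9 by DESeq2, 6 by limma-voom, 2 with a mean count of at least 50, 3 without either pair of LKO chow libraries, and 0 to 1 with 1 library left out. For diet in LKO, 1 became 19 by limma-voom, 0 on the compared groups only, 25 without LKO chow libraries 1 and 2, 0 without libraries 3 and 4, and 0 to 3 with 1 library left out. The interaction median of -0.05 was 0.10 without LKO chow libraries 3 and 4 and -0.16 without libraries 1 and 2; with 1 library left out it ran from -0.11 to 0.05, above 0 without WT chow library 3 or LKO chow library 4. The mean share of 0.993% was 1.11% with near copies, chosen after seeing the data. The Rpl10 change reversed to 0.0082 with pseudogene-marked copies added, 0.0086 with near copies and 0.0087 with looser ones. Scaling by total counts moved the all-gene median to 0.11 on chow, with 6 members higher and 0 lower, and to 0.10 for diet in WT. With replicate number as a block 7 members were called on chow (Rpl4 lost) and other counts did not move. The labels do not say that the numbers pair libraries. Only 5 of 24 same-numbered pairs correlated above 0.1 (range -0.278 to 0.318). With 4 libraries per group these correlations cannot decide whether libraries are paired. The number of all genes called moved with the setting as well. For diet in LKO it was 320 of 14434 genes by edgeR, 2053 of 14434 by limma-voom and 188 of 14139 on the compared groups only. The cause of the changes between settings was not tested. Copies of identical or nearly identical sequence limit at least the 16 members with over 5% of their pooled reads on copies. Rps6 is not among the 16, with 0.802% on copies, and still lost its genotype call on chow with copies added. In Rps12, Rpl12, Rpl5, Rpl27a, Rpl10 and Rps23 the copies held over 50%.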
